A study of Drosophila melanogaster with 4 samples.

Results

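Among 1283 genes that the authors listed as differing between snf148 and wild-type ovaries of Drosophila melanogaster, 55 autosomal genes were at or near 0 in wild type and detected in the mutant. They were chosen by their levels in these same data: a mean FPKM (fragments scaled to transcript length and to the mapped fragments of the library) below 0.1 in wild type and of at least 0.3 in snf148, a locus off chromosomes X and 4, and a name outside several families that were left aside (noncoding CR genes, Cpr, Sdic, Hsp, small RNA and upd genes, and can). Of 80 genes that met both levels, 23 lay on X and 0 on 4, and a further 2, can and Cpr47Ee, were left out by name. The levels and the direction of the difference are therefore a description of the choice and carry no test here.

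The mutant females had the genotype y w snf[148] v and were 3-day adults. Wild-type females were y w, 0 to 24 hours old, and labelled as virgins. Both groups thus carried y and w, only the mutant carried v, and age differed together with genotype. Each group had 2 ovary libraries, of which the deposited tables give 1 mean per group. No value per library was analysed here, so no SD stands beside a mean, whether the groups overlap cannot be said, and the depth is unknown.

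Sans fille (snf) encodes a protein shared by the U1 and U2 small nuclear ribonucleoproteins and is needed for female splicing of Sex-lethal RNA. Female germ cells that lack Sex-lethal protein do not differentiate into eggs, form tumours and switch on genes that are normally used in the testis. A gene that is off in the normal ovary can appear in ovarian RNA through its use in germ cells, in follicle cells, or in neighbouring tissue that was dissected along with the ovary. In bulk RNA, more cells of a type and more RNA per cell cannot be told apart.

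All 55 genes were in the table of genes higher in snf148, as the choice requires, beside 51.8% of all listed genes. In snf148 ovaries their FPKM ran from 0.330 to 4.04 with a median of 0.744. The other 453 higher genes off X and 4 had a median of 18.7 FPKM. Only 14 of the 55 reached 1 FPKM in snf148 and 9 reached 2 FPKM, so 41 of them stayed below 1 FPKM in the mutant as well. In wild type, 22 genes were listed at 0 and 33 lay between 0.0175 and 0.0996 FPKM. For these 33 genes the ratio of the deposited means ran from 5.73-fold to 83.0-fold, with a median log2 ratio of 3.44, beside 2.08 for the other higher genes off X and 4. No fold is given for a gene listed at 0.

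**Figure D1:**
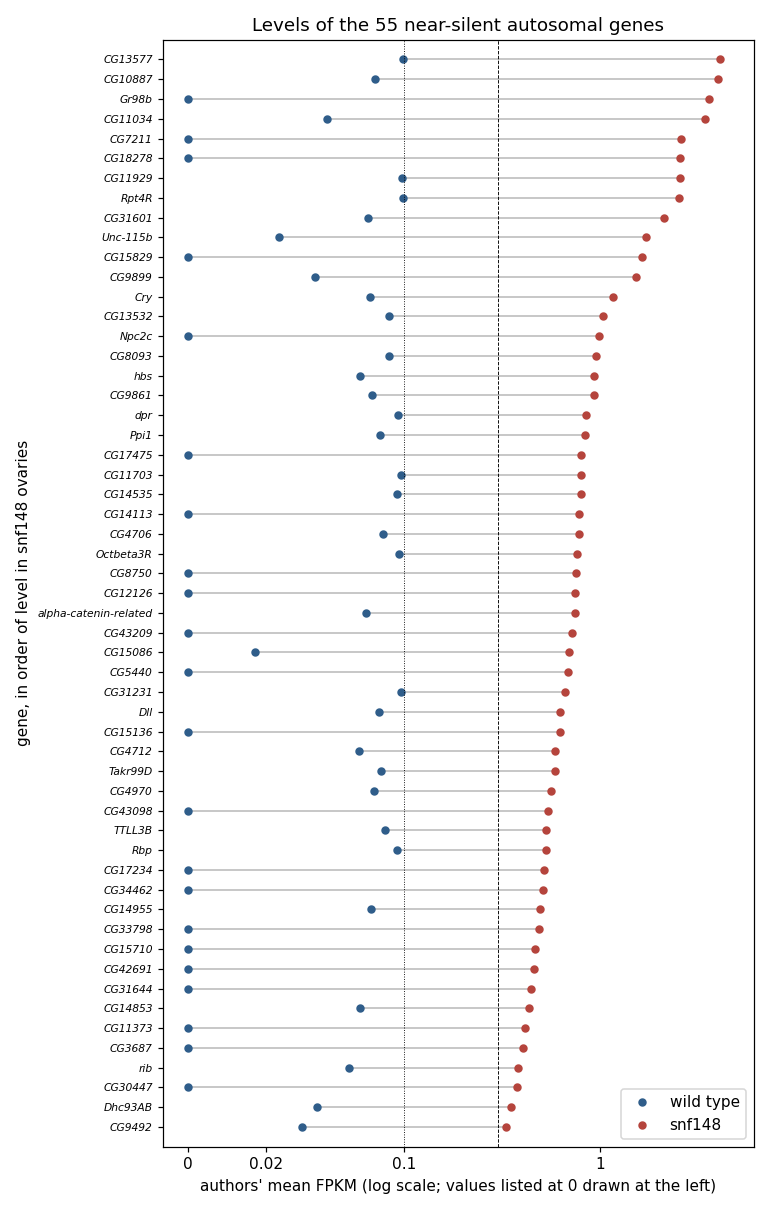
Authors' mean FPKM of each of the 55 genes in wild type (blue) and snf148 (red) on a log axis, ordered by the level in snf148; values listed at 0 are drawn at the left edge, and the dotted and dashed lines mark 0.1 and 0.3 FPKM. Levels in snf148 fall from 4.04 FPKM for CG13577 to 0.330 FPKM for CG9492, and 22 genes stand at 0 in wild type.

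The strongest of the genes in snf148 were a pair with no role given here. CG13577, at 20154899 to 20156686 on 2R (positions follow the tables, whose genome build is unknown), stood at 4.04 FPKM in snf148 against 0.0996 FPKM in wild type. CG10887, at 15940560 to 15942861 on 3R, stood at 3.95 against 0.0712 FPKM. CG11034, at 5805395 to 5808858 on 2L, had the largest ratio of the 33 genes above 0 in both groups, 83.0-fold, from 3.38 against 0.0407 FPKM. The authors' deposited table gave it an adjusted P value of 0.0268. CG11929, with a 25.9-fold ratio from 2.53 against 0.0978 FPKM, had the smallest adjusted P value listed, 0.00126, as did 39.4% of all higher genes. The order of the ratios was thus not the order of the authors' P values. CG18278 stood at 2.54 FPKM and was listed at 0 in wild type. Its deposited span was 2948 bp, against 1846 bp in the reference, where it overlaps BaraA2 on the opposite strand. Of the genes with no role given here, the next in level after these were CG31601 at 2.09 against 0.0660 FPKM, CG9899 at 1.52 against 0.0353 FPKM and CG13532 at 1.03 against 0.0841 FPKM.

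**Figure D2:**
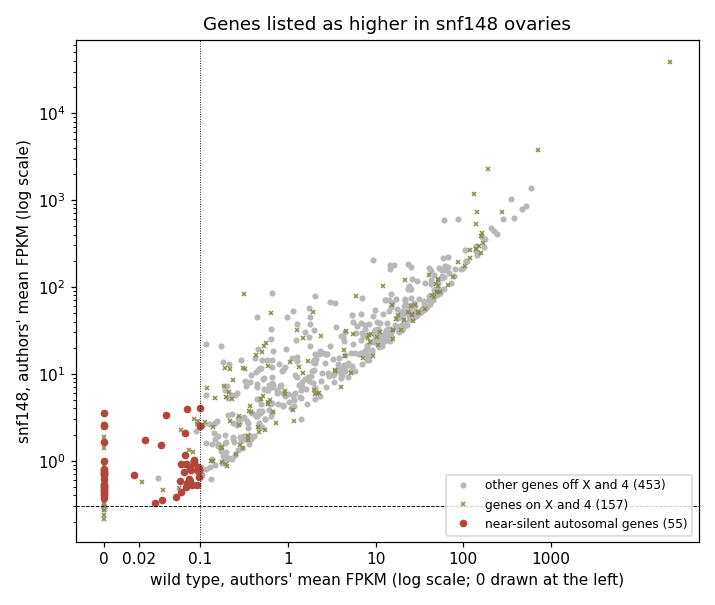
All 665 genes listed as higher in snf148, with the authors' mean FPKM of wild type on the x axis and of snf148 on the y axis, both on log scales, with 0 drawn at the left; the lines mark the levels used to choose the 55 genes (red). They fill the lower left of the plot, below 0.1 FPKM in wild type and between 0.330 and 4.04 FPKM in snf148, and the column at 0 holds 22 of them.

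By role, as far as names give one, 26 of the 55 genes could be placed in 7 small groups. These groups were made from gene names after the values were known, so their counts only order the description. Axonemal dyneins are the motors that bend the sperm tail and the cilia of fly sensory neurons. Both dynein heavy chain genes of the set stood lowest of all 55 in snf148: Dhc93AB had 0.350 against 0.0364 FPKM (9.63-fold), and CG9492, now named Dhc1, had 0.330 against 0.0304 FPKM (10.8-fold). They are also long transcripts, with 14010 and 14566 bases in the canonical model of the reference, so their low FPKM stands for 4.90 and 4.80 FPM in snf148, FPM being the FPKM multiplied by the transcript length in kilobases, or fragments scaled to the library alone. TTLL3B, which encodes a glycylase of the tubulin tyrosine ligase-like family, stood at 0.530 against 0.0806 FPKM. Its neighbour and paralogue TTLL3A is not among the listed genes, which says nothing about its level.

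Mitochondrial and proteasomal paralogues formed the next groups. Flies carry several extra copies of genes for respiratory and proteasome subunits, and many such copies are used mainly in the male germline. CG7211, renamed ATPsynGL for its likeness to an ATP synthase subunit, stood at 2.56 FPKM in snf148 and was listed at 0 in wild type. CG31644, renamed COX6CL for its likeness to a cytochrome c oxidase subunit, stood at 0.442 FPKM and was also at 0 in wild type. CG4706, renamed mAcon2, is a paralogue of the aconitase of the citric acid cycle and stood at 0.775 against 0.0780 FPKM, a 9.94-fold ratio. Rpt4R, a paralogue of the proteasome ATPase subunit Rpt4, stood at 2.50 against 0.0994 FPKM, a 25.1-fold ratio. CG5440, listed in the reference under the synonym Ube2E2 of the ubiquitin-conjugating enzymes, stood at 0.680 FPKM and at 0 in wild type. Its deposited span was 688 bp, against 1387 bp in the reference. Reads can be shared between such paralogues and their parent genes, and how the authors assigned them is not given in the sources used here.

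Receptors and a synaptic protein made up 4 of the genes. Gr98b, a gustatory receptor gene at 23368219 to 23369610 on 3R, stood at 3.55 FPKM in snf148, the highest level of the 22 genes listed at 0 in wild type. Its flanking paralogue Gr98c is not listed. The chemoreceptor families held 3 other listed genes, all higher: Or88a at 5.65 against 0.117 FPKM, and Or9a and Gr2a on X at 1.45 against 0.176 and 0.215 against 0 FPKM. A list of ion channel and neural genes, matched by name pattern and including Octbeta3R, had 9 higher and 6 lower genes. Of all listed genes, 51.8% were higher. The pattern takes in genes by the start of their names, whatever the product, such as the lower gene Mipp1 at 101 against 157 FPKM. The summed level of this list was 634 against 1185 FPKM. Most of both sums came from the lower gene Nplp2, at 362 against 906 FPKM, so the sums do not give the direction of the list. Takr99D matches the pattern only by its current symbol, TkR99D, and was not counted. Octbeta3R, a receptor for the neuromodulator octopamine, stood at 0.759 against 0.0945 FPKM, and Takr99D, a receptor for tachykinin peptides, at 0.586 against 0.0763 FPKM. The RIM-binding protein gene Rbp, whose product organises the active zone of synapses, had the smallest ratio of the set, 5.73-fold, from 0.528 against 0.0922 FPKM.

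Genes of adhesion and the cytoskeleton were all above 0 in wild type. Hibris (hbs), an immunoglobulin protein of myoblast fusion and eye patterning, stood at 0.930 against 0.0600 FPKM (15.5-fold) and shared the smallest adjusted P value. The immunoglobulin gene dpr stood at 0.844 against 0.0933 FPKM and alpha-catenin-related, a paralogue of the cadherin partner alpha-catenin, at 0.738 against 0.0642 FPKM. Unc-115b, an actin-binding protein gene, had the second largest ratio, 73.6-fold, from 1.71 against 0.0233 FPKM. Its deposited span was 12365 bp, against 5716 bp in the reference, where it overlaps p24-2 on the same strand. CG14535, listed as a kinesin of the KIF26 family, stood at 0.799 against 0.0928 FPKM. A pair of transcription factor genes completes these: Distal-less (Dll), the homeobox gene of limb outgrowth, stood at 0.624 against 0.0750 FPKM, and ribbon (rib), a BTB protein of tracheal and salivary gland morphogenesis, at 0.383 against 0.0529 FPKM. A list of 109 patterning transcription factors had 6 in the tables, with 4 higher and 2 lower, and Dll was the only one of the 55.

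The remaining named products were secreted proteins, lipid carriers, a lens protein, a cuticle protein and a sodium pump subunit. The trypsin-like protease genes CG17475 and CG17234 stood at 0.801 and 0.515 FPKM and were both at 0 in wild type. Npc2c, of a sterol-binding family, stood at 0.983 FPKM, and CG15829, an acyl-CoA-binding protein gene renamed Acbp6, at 1.63 FPKM, both at 0 in wild type. The deposited span of CG15829 was 478 bp, against 771 bp in the reference. Its neighbours, Acbp4 and Acbp3, and that of Npc2c, Npc2d, are not listed. Cry, which on 2L is the corneal lens gene now called Crys and not the cryptochrome gene of 3R, stood at 1.16 against 0.0672 FPKM. CG34462, at 0.509 FPKM and at 0 in wild type, has the synonym Cpr66Ca and so is a cuticle gene that the exclusion by name did not catch. CG11703, known as the sodium pump subunit gene JYbeta2, stood at 0.799 against 0.0968 FPKM.

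No role is given here for the other 29 genes, 8 of which are among the 15 highest. The remaining 21 stood between 0.378 and 0.953 FPKM in snf148, and 12 of them were at 0 in wild type. They are CG8093, CG9861, Ppi1, CG14113, CG8750, CG12126, CG43209, CG15086, CG31231, CG15136, CG4712, CG4970, CG43098, CG14955, CG33798, CG15710, CG42691, CG14853, CG11373, CG3687 and CG30447. Ppi1 stood at 0.832 against 0.0762 FPKM (10.9-fold). The largest ratio among the 21 genes was that of CG15086, 39.6-fold from 0.691 against 0.0175 FPKM. In the reference, that name now covers 3 genes and CG14955 covers 2, so these values may be sums over separate genes. Of the 55 genes, 39 (70.9%) were listed by a CG number alone, beside 45.7% of the other higher genes off X and 4.

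Genes listed at 0 in wild type were shorter than the other members of the set. The 22 genes at 0 in wild type had a median span of 718 bp, and 16 of them spanned under 1000 bp. The 33 genes above 0 had a median span of 3923 bp, from 1278 to 51595 bp, and 0 of them spanned under 1000 bp. Their median levels in snf148 were 0.652 and 0.799 FPKM. This difference may follow at least in part from the choice, since FPKM divides by length. For 27 of the 33 genes, those with spans within 10% of the reference, wild-type FPKM was multiplied by transcript length in kilobases. The lowest product was 0.104, at which a transcript under about 1000 bases would exceed the limit of 0.1 FPKM. These 27 genes had already met that limit and the others were not counted, so this length is only a rough guide. Short genes could thus enter the set above 0 less readily than long ones, and nothing further is read from the split.

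**Figure D3:**
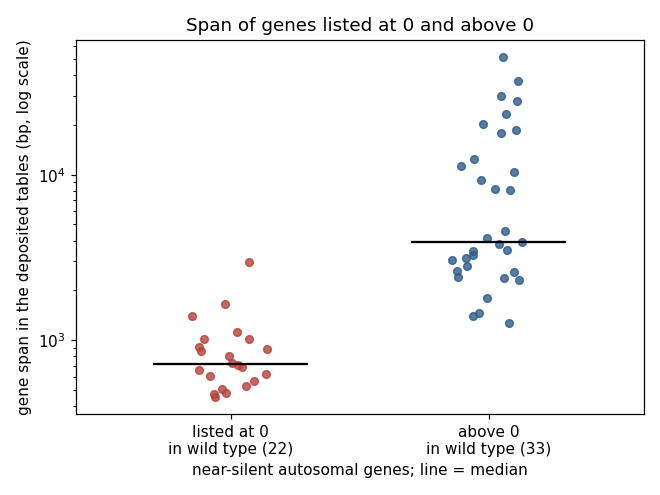
Span of the 55 genes in the deposited tables, in bp on a log axis, for the 22 genes listed at 0 in wild type and the 33 above 0; each point is a gene and lines are medians (718 and 3923 bp). All genes under 1000 bp are at 0 in wild type, which the limit of 0.1 FPKM may in part impose, and the spans overlap between 1278 and 2948 bp.

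The FPM, as defined above with the length of the canonical transcript, undoes the division by length. At equal FPKM a longer transcript therefore has a higher FPM. It was available for the 44 genes whose span lay within 10% of the reference gene. In snf148 the 17 such genes at 0 in wild type had a median of 0.416 FPM (0.148 to 4.30), and 16 of them were under 1, with Gr98b above it. The 27 genes above 0 in wild type had a median of 3.04 FPM in snf148 (1.02 to 8.64), and 0 were under 1. They also had the longer transcripts, so the gap in FPM follows at least in part from length. The median levels of all 22 and 33 genes were closer, at 0.652 and 0.799 FPKM. In wild type these 27 had 0.104 to 0.775 FPM, with a median of 0.20. The lowest genes in snf148 were CG11373, at 0.148, and COX6CL (CG31644), at 0.216 FPM, which is the range of the wild-type values that were still above 0. With depth unknown, the number of fragments cannot be given, and a level listed at 0 does not show that a gene was silent.

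**Figure D4:**
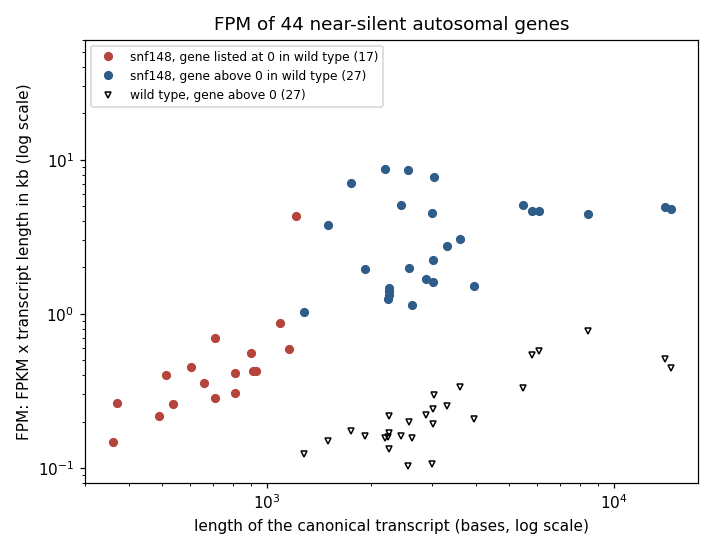
FPM implied by the deposited FPKM and the canonical transcript length for 44 of the genes, on log axes: snf148 for genes listed at 0 in wild type (red) and above 0 (blue), and wild type for the latter (open triangles). Of the 17 red points, 16 lie below 1 FPM, whereas the 27 blue points start at 1.02. FPM rises with transcript length at a given FPKM, and the red genes have the shorter transcripts.

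The authors' P values also differed between the genes at 0 and above 0. The smallest P value listed, 5e-05, was shared by 18 of the 22 genes at 0 in wild type and by 5 of the 33 above 0. For the 55 genes together the share was 41.8%, beside 39.3% of the other higher genes off X and 4. CG30447 is an example, with the smallest P value at only 0.378 FPKM and 0.306 FPM, whereas CG13577, at 7.04 FPM in snf148 and 0.174 in wild type, had an adjusted P value of 0.00314. An adjusted P value of at most 0.01 was reached by 36 of the 55 genes, beside 64.4% of all higher genes off X and 4. Of these 36, 21 were at 0 in wild type. Since the levels chose the genes, nothing is read from this count.

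Position was not part of the choice beyond the exclusion of X and 4. There were 20 genes on 2R, 16 on 3R, 12 on 2L and 7 on 3L. The share on 2R was 36.4%, beside 27.4% of the other higher genes off X and 4, and that on 3L was 12.7% beside 21.9%. No test was made of these shares. A listed gene started within 10 kb of 15 of the 55 genes. It was a higher gene for 13 of them (23.6%, beside 15.7% of the other higher genes off X and 4) and a lower gene for 4 (7.27%, beside 13.5%), with both kinds near 2 of them.

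Only 1 pair of the 55 genes lay within 10 kb of each other. CG42691 and CG30447 start 1490 bp apart on 2R, at 15833236 and 15834726, are on opposite strands in the reference, and stood at 0.460 and 0.378 FPKM, both at 0 in wild type. CG11034 and CG31644 on 2L start 12495 bp apart, with the unlisted CG43307 next to both. The protease gene CG17234, at 2253045 to 2253852 on 2L, lies between 2 higher genes. Send1, an endopeptidase gene of the sperm-storing spermathecae, starts 1131 bp away and stood at 44.6 against 0.985 FPKM, and CG17239 starts 1535 bp away and stood at 13.6 against 0.180 FPKM. On 3R the protease gene CG17475 lies 3327 bp from CG17477, which was also at 0 in wild type but, at 0.284 FPKM in snf148, fell short of the level required. Other neighbours were far stronger, such as Mp20 beside CG4712, and Hsp70Bc beside Octbeta3R at 25.5 against 0.644 FPKM. Whether reads of such neighbours entered the weak genes was not tested.

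In the reference 11 of the 55 genes overlap another protein-coding gene, and none of the 14 partners is listed. CG9861 overlaps tbrd-3, of a family of testis bromodomain proteins, on the opposite strand, and Rbp likewise overlaps h-cup. The libraries were stranded, but the strand setting used for counting is not given in the sources used here, so the reads of such pairs cannot be told apart. Unc-115b overlaps p24-2, and CG42691 overlaps CG42690 and CG43195, on the same strand, where strand alone cannot separate the reads.

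Names of testis cDNA clones were not part of the rule, but they are not independent of it. The prefix BcDNA:AT marks clones of an adult testis library, and 4 of the 53 genes with a single reference match had such a synonym: CG12126, CG31231, CG31644 and CG3687. That is 7.55%, beside 2 of 447 (0.447%) of the other higher genes off X and 4 and 238 of 13962 (1.70%) of all protein-coding genes of the reference. CG12126 stood at 0.744 FPKM and CG3687 at 0.404 FPKM, both at 0 in wild type, and CG31231 at 0.659 against 0.0969 FPKM. A BcDNA name of any library was borne by 5 of the 53 and by 51 of the 447. The other higher genes off X and 4 had a median of 4.24 FPKM in wild-type ovary, whereas the rule kept genes below 0.1 FPKM. The shares of testis clones may thus differ through the choice itself. The counts are small and no test was made. The synonyms are an incomplete record of where a gene is used.

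Marker lists of the tissues show what else differed in these ovaries. Of 18 germline markers of the ovary, 11 were listed and all were lower, with a summed level of 1251 FPKM in snf148 against 3319 FPKM in wild type, so transcripts of oocyte genes such as osk and orb remained abundant in both groups. Of 27 regulators of testis transcription 6 were listed, all higher, at a sum of 57.6 against 1.6 FPKM. None of these is among the 55; can, left out by name, stood at 0.635 against 0.0324 FPKM. Of 55 genes on a list of spermatid products 9 were listed, all higher, at a sum of 208 against 4.48 FPKM. Most of the sum in snf148 came from ribosomal protein and translation factor genes: RpL37b (85.1 FPKM), RpL22-like (53.2 FPKM) and eIF4E-3 (45.6 FPKM). CG7211 was the only one of the 9 at 0 in wild type and the only one among the genes described here. Of 8 spermathecal and oviduct genes Send1 and lz were listed, both higher, at a sum of 45.0 against 1.04 FPKM. Nearly all of that sum came from Send1, at 44.6 against 0.985 FPKM. The gene lz, at 0.483 against 0.0565 FPKM, is also on the haemocyte and fat body list. Markers of muscle (4 of 25 listed, 70.8 against 158 FPKM) and midgut (2 of 13, 1.71 against 14.4 FPKM) were all lower. The muscle protein gene Mp20, which is not on the muscle list, was higher, at 409 against 241 FPKM, so muscle genes did not all go one way. Of 20 haemocyte and fat body genes 6 were higher and 1 lower, at a sum of 2630 against 607 FPKM, most of it from yolk protein genes that follicle cells also express. The part of any of these tissues in the levels of the 55 genes was not tested.

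By construction the genes on either side of a limit were close in the level that it applies to. Inside the wild-type limit stood CG13577 at 0.0996, Rpt4R at 0.0994 and CG11929 at 0.0978 FPKM, and outside it CG42335 at 0.1004, CG34277 at 0.102 and l(3)mbn at 0.103 FPKM. In snf148 the former stood at 4.04, 2.50 and 2.53 FPKM and the latter at 0.853, 0.667 and 0.691 FPKM. Inside the snf148 limit stood CG9492, Dhc93AB and CG30447, at 0.330, 0.350 and 0.378 FPKM. Outside it stood CG17477 at 0.284 and CG10200 at 0.278 FPKM, both at 0 in wild type.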

How the data were processed

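Ovarian total RNA of 2 genotypes with 2 libraries each was sequenced as stranded paired-end libraries, per the labels' protocols. TopHat2 2.0.9 and an unversioned Cuffdiff appear in the submitters' processing notes; which genome build, annotation and counting settings they ran with is not given in the sources used here. Per the file headers, the authors deposited a mean FPKM per group, log2 of wild type over snf148, and the raw and adjusted p-value of their own test. Direction was taken from the FPKM columns. Only genes past the authors' threshold are in the tables, so nothing is said of unlisted genes.

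Ratios were recomputed from the deposited means with pandas 2.3.3 in Python 3.11.15; they differed from the authors' log2 values by at most 8.94e-06 for the 33 genes above 0 in both groups. Starts were moved by 1 to browser counting, since spans with starts counted from 0 equalled the reference length for 22 genes and with starts counted from 1 for 0. Names, exons, overlaps and flanking genes came from RefSeq and Ensembl annotation of release 6, with no coordinate taken from it; 53 of the 55 genes matched 1 gene. FPM (FPKM multiplied by transcript length in kilobases) ignores the effective length used in FPKM estimation. The membership rule was tested on simulated data. No test across samples could be made, and a planned promoter motif count was not run, since no sequence table was at hand. The genes and lists were chosen with earlier results of these data known. Values are given in full for the 15 highest genes, those with a symbol or role, those near another of the 55, and the genes nearest each limit. Genes with a role but no symbol, the genes with testis clone names, the neighbours and the flanking paralogues were picked with their values in view. Alternatives tried were other limits, an adjusted P value of at most 0.01, names not excluded, pseudocounts, and distances of 5 and 20 kb.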

Additional observations from a re-analysis of the deposited data

How the results depend on the processing

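The set depends on its limits, as any set cut from a continuous range of weak levels does. Of the alternative values, 23 stayed near the main value (counts within 1.5 times, medians within the 95% interval of the median over genes) and 18 moved. Some of the 23 could hardly move. The count of 22 genes at 0 is fixed at wild-type limits of 0.05 and 0.2 FPKM, and admitting the excluded names added only 2 genes. The interval over genes served only to sort the values and does not measure spread between samples. No change of sign was possible, since the rule fixes the direction. With wild type below 0.05 FPKM 28 genes remained and the median log2 ratio was 5.37; below 0.2 FPKM there were 91 genes, a median of 0.927 FPKM in snf148, and 4 genes with another within 10 kb. With at least 1 FPKM in snf148 there were 14 genes, 4 of them at 0 in wild type, with medians of 2.51 FPKM and 5.16 on the log2 scale; there, and with at least 0.5 FPKM, 0 genes had another within 10 kb. Requiring an adjusted P value of 0.01 or less kept 36 genes. With pseudocounts of 0.1 and 1 FPKM and genes at 0 kept, the median log2 ratio was 2.61 and 0.72; with the same pseudocounts and genes at 0 left out, an alternative added after seeing the data, it was 2.30 and 0.72. A distance of 20 kb gave 4 genes with another nearby. Leaving out genes that overlap others or match no single reference gene, also added then, left 42 genes and 0 with another within 10 kb. No paired analysis was possible because the tables hold 1 mean per group, and for the same reason no library could be left out.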
